A study of Homo sapiens with 2 samples.

Results

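The replication-dependent histone genes encode the H1, H2A, H2B, H3 and H4 proteins that package newly copied DNA. They were taken here as the protein-coding genes of GENCODE release 44 (hg38) with the symbols H1-1 to H1-6, or with symbols that start with H2AC, H2BC, H3C or H4C and a digit. This gave 70 genes of 19970 protein-coding genes. An interaction was counted as a histone gene interaction when at least 1 of its 2 bins overlapped such a gene or the 10 kb on either side of it, which held for 14 of 49245 listed interactions. The sum of their contact counts was 334 read pairs of 1268490 in the list.

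The list came from a HiChIP experiment, in which chromatin contacts are ligated, enriched with an antibody and sequenced as read pairs. The cells were HAL-01, a human B-cell acute lymphoblastic leukemia line with the t(17;19) translocation that makes the fusion transcription factor TCF3::HLF, and they carried Cas9GFP with the wild-type copy of TCF3 knocked out. The antibody was raised against TCF3, so in these cells it was meant to report the fusion alone. All values belong to 1 condition of 1 cell line with no cells without the fusion and no untreated sample, and the authors merged the 2 replicates before calling interactions, so no value below has a replicate error. Intervals cover counting error only, and because read duplicates were kept they are narrower than the true uncertainty.

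As background, replication-dependent histone genes are short, lack introns in their coding part and sit in dense groups, of which the largest lies on chromosome 6. They are transcribed during S phase in a nuclear structure called the histone locus body, where NPAT is the main activator, and their mRNAs end in a stem-loop bound by SLBP in place of a poly(A) tail. HLF is a bZIP factor that binds the palindrome-like sequences TTACGTAA and TTATGTAA, and TCF3::HLF keeps the DNA binding domain of HLF.

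The 14 interactions, named A to N by position, used 12 bins at histone genes. Of these 12 bins, 7 held at least 1 exact HLF motif, and every motif was TTATGTAA. By the same rule 30.6% of all bins, and 31.5% of all bins with a listed interaction, held a motif. These shares take TTACGTAA and TTATGTAA together, and the forms were not counted separately over all bins. The sites are shown because their letters match a sequence that HLF binds, and binding at the sites themselves was not measured. Capitals mark the motif, each sequence is the hg38 strand on which it reads TTATGTAA, and a name gives the histone gene nearest to the bin.
H4C12 bin, chr6:27834313-27834342, minus strand: agtacagaagcTTATGTAActtttttcata
H3C6 bin, chr6:26222977-26223006, plus strand: ctgctaagttcTTATGTAAtcatgtaaatt
H4C4 bin, chr6:26192541-26192570, minus strand: catacaaatatTTATGTAAaaaaacttgca
H2BC13 bin, chr6:27797355-27797384, plus strand: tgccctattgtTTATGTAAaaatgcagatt
H2BC17 bin, chr6:27899292-27899321, plus strand: atcacctcattTTATGTAAtttactggatt
H2AC19 bin, chr1:149846423-149846452, minus strand: gtaaaattaatTTATGTAAattgatagaat
H2BC18 bin, chr1:149809066-149809095, plus strand: ccttgaaaagaTTATGTAAccaatctcaat
The H2BC17 and H2AC19 bins each held 2 such sites, of which 1 is shown.

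The genes shared sequence features. Members were chosen by symbol and not by sequence, but the symbols name the gene class whose mRNAs end in a stem-loop. A high share of genes with a stem-loop was therefore built into the choice. Each gene, with 300 bases on either side, was searched for a perfectly paired stem of 6 bases with a loop of 4 bases. The loop had to begin TT and the first arm to read GGYYNY, where Y is C or T and N any base. The search thus fixed part of the arm in advance, was not limited to the end of the gene, and was not run on other genes. Such a stem-loop was found at 64 of the 70 genes (91.4%). In all 14 H4 genes that had one the first arm read GGCCCT, while in the 50 genes of the other classes it read GGCTCT. Only the first match in each gene was read. At H3C12, whose annotated span overlaps H2AC17, this was the same site as at H2AC17. Examples follow, with the arms and the loop in capitals and the strand that of the gene.
H4C11, chr6:27824459-27824474, plus strand: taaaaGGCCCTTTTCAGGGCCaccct
H4C12, chr6:27831178-27831193, minus strand: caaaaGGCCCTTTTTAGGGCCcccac
H2AC18, chr1:149842223-149842238, minus strand: caaaaGGCTCTTTTCAGAGCCaccca
H3C8, chr6:26270923-26270938, minus strand: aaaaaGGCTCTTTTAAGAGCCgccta
H1-3, chr6:26234217-26234232, minus strand: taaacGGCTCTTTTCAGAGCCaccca
The coordinates are those of the capitals. The commonest form, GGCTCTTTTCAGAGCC, was present at 40 genes. No stem-loop of this strict form was found at H2BC12L, H3C6, H2BC10, H2AC11, H2AC15 or H4C13, which says only that these letters were not there.

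Promoters of 64 of the 70 genes were matched in RefSeq (GRCh38.p14), each running from 250 bases before to 50 bases after the start site. The octamer ATGCAAAT, the site of POU2F1 and POU2F2, was present on either strand in 14 of 18 H2B promoters and 11 of 16 H2A promoters. By contrast it was found in 1 of 11 H3 promoters and in none of 6 H1 or 13 H4 promoters, against 1.80% of all 27305 promoters of the same length. Some H2A and H2B genes are close neighbours on opposite strands, and the promoter of H2BC4, for example, runs over the start of H2AC6. The same octamer can then be counted for both genes, so the H2A and H2B shares are not separate counts. The CCAAT box was present in 54 of the 64 promoters, with H4 lowest at 3 of 13, against 35.7% of all promoters. The letters TATAAA were present in 42 of the 64 against 11.95%. Octamers of H2B promoters are shown with the 8 bases in capitals, read on the strand of the gene, where the octamer lies reversed as ATTTGCAT.
H2BC10, 45 bases before its start: cagccagcctcATTTGCATatacacgaggt
H2BC11, 47 bases before its start: ctcttcaccttATTTGCATaagcgattcta
H2BC18, 49 bases before its start: tgcgagtcttcATTTGCATacgggctctat
All of these 3 genes had an interaction within 10 kb, and so did other H2B genes in which the octamer sat farther from the start, such as H2BC6 at 108 bases. H2BC21, with its octamer 46 bases before the start, and H2BC9, with one at 49 bases, had none.

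Of the 70 histone genes, 38 lay within 10 kb of a listed bin and 32 did not. The share reached was 54.3% (95% Wilson interval 42.7 to 65.4%), while 64.5% of all protein-coding genes were reached by the same rule. Neighbouring histone genes share bins, so these 70 are not 70 independent counts, and this interval is too narrow. By class, 12 of 19 H2B genes, 10 of 17 H2A genes, 7 of 13 H3 genes and 8 of 15 H4 genes were reached. Distances were taken from the annotated gene span, which for some genes runs several kb beyond the stem-loop. The H4 genes H4C14, H4C15 and H4C8 were reached only through such spans, with their stem-loops more than 10 kb from the bin. Among the genes of the linker histone H1, which binds where DNA enters and leaves the nucleosome, H1-3 was reached and the other 5 were not. The Wilson intervals of the 5 classes overlapped, from 3.01 to 56.4% for H1 and from 41.0 to 80.9% for H2B.

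No histone gene had more than 3 interactions, and the mean was 0.757 per gene against 3.61 for all protein-coding genes. The medians were both 1. The 4 genes with 3 interactions were H4C11, H4C12, H2AC15 and H2BC15, neighbours in the group from H2BC13 to H2BC17 on chromosome 6, and all of their interactions came from 1 bin, chr6:27830001-27835000, which holds H4C12. The median histone gene was 0.5025 kb long and the median protein-coding gene 27.5 kb, and the part of gene length in these numbers was not tested. Among genes of at most 1 kb, a limit set after the values were seen, 27 of 52 histone genes were reached (51.9%, 38.7 to 64.9%), against 136 of 419 other genes (32.5%, 28.2 to 37.1%). The means were then 0.712 and 0.716 interactions per gene.

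Few bins lay on the genes themselves. A listed bin overlapped the gene in 6 of 70 cases (8.57%), against 51.2% of all protein-coding genes, and in 5.77% of the histone genes of at most 1 kb against 9.07% of other genes of that length. The 6 genes were H2BC18, H2AC6, H3C6, H3C8, H2BC10 and H4C12. The start site was inside the bin for H3C6, H3C8, H2BC10 and H4C12. For H2AC6 the bin lay in the annotated gene but on no exon, and 5.856 kb from the start site. For H2BC18 it overlapped an annotated exon 2.373 kb from the start site. The remaining 32 reached genes lay between 0.323 kb (H4C9) and 9.61 kb (H4C5) from the bin. Just inside the limit of 10 kb were H4C5 and H1-3, at 9.61 and 9.212 kb, and just outside it was H3C10, an H3 gene at 10.051 kb, followed by H2AC14 at 14.302 kb.

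Counted by bins rather than by genes, the histone loci were close to the rest of the genome. The windows of 10 kb around the genes held 143 bins of 5 kb, of which 12 were in a listed interaction (8.39%, 95% Wilson interval 4.87 to 14.1%). Of all 582492 bins, 9.19% were, and of the bins within 10 kb of any protein-coding gene 11.3% were. HLF motifs were present in 42 of the 143 bins (29.4%) and in 30.6% of all bins. Among the 12 bins with an interaction 7 held a motif (58.3%, 32.0 to 80.7%), among the other 131 bins 26.7% did, and among all bins with an interaction in the genome 31.5% did. The genome-wide value lay just below the lower end of the interval for the 12 bins, and no test was made.

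The 14 contact counts ran from 9 to 53 read pairs with a median of 22, and the median of the whole list was 24. The bins were 50 to 2745 kb apart, with a median of 285 kb against 255 kb in the list. The q-value was under 1e-05 in 10 of 14 interactions (71.4%, 45.4 to 88.3%), and in 66.5% of the list. An HLF motif was present in at least 1 bin of 13 of 14 (92.9%, 68.5 to 98.7%), and in 66.8% of the list. Another 11 interactions touched the part of chromosome 6 that its histone genes span, with none of these genes within 10 kb. All 11 held a motif (100%, 74.1 to 100%), so the high share was not particular to histone gene interactions. Some of these 11 share a bin, so this interval is too narrow. The motif lay in the bin at the histone gene in 10 of the 14, of which 6 had none in the partner bin. It lay in the partner bin alone in 3. B and C share a bin, as do E and L, and H, K and M, so the intervals over the 14 are too narrow. None of the 14 belonged to a merged group of neighbouring bin pairs (0 of 14, which allows up to 21.5%), while 7.69% of the list did. Each histone gene interaction was thus listed as a single pair of bins.

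Set against listed interactions of similar length (within 10%), 6 of 14 had more read pairs than the median. The ratio to that median ran from 0.36 for A to 2.30 for C, with a median of 0.911. Interactions with a low ratio were also near the limit of the list, which the authors set at a q-value of 0.01: A had q = 0.00682, J q = 0.00975, N q = 0.00851 and I q = 0.00521.

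The group of 11 genes from H2BC18 to H2AC21 on chromosome 1 (chr1:149782689-149887965) held both the highest count of the 14, 53 for C, and the lowest, 9 for A. Its 3 interactions came from 2 bins. The bin chr1:149845001-149850000 lies between the 2 H2A genes H2AC18 and H2AC19 and overlaps no protein-coding gene, with H2AC19 at 1.061 kb and H2AC18 at 2.251 kb. Within 10 kb of it are H4C14, H3C14, H2AC18, H2AC19, H3C15 and H4C15, so that each of these 6 genes had 2 interactions.

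Interaction C joined this bin to chr1:150230001-150235000, 385 kb away, with 53 read pairs (exact 95% Poisson interval 39.7 to 69.3) and P = 3.78e-35. It was the strongest of the 14 by count and by P, and ranked 656 of 49245 by P. The partner bin lies in ANP32E, which encodes a chaperone that removes the variant histone H2A.Z from nucleosomes, and overlaps an exon of it 1.156 kb from the start site. Of interactions of similar length, 1.102% had as many read pairs. The partner bin held no HLF motif, and the bin at the histone genes held 2.

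Interaction B left the same histone bin for chr1:150055001-150060000, 210 kb away, with 32 read pairs (21.9 to 45.2). FitHiChIP gave it a q-value of 4.74e-12. The partner overlapped a long non-coding RNA gene and the pseudogene RPL6P31, 7.279 kb from VPS45, a gene of vesicle transport, and held 2 HLF motifs. Interaction A joined a bin in H2BC18 (chr1:149805001-149810000) to the bin with the start site of SV2A, a synaptic vesicle glycoprotein gene, over 110 kb. Its 9 read pairs (4.12 to 17.1) were the fewest of the 14, and 99.97% of interactions of similar length had as many or more. The Poisson interval of A did not overlap those of B and C.

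The genes around the bin of B and C are near-identical copies of each other, which limits where reads can be placed. All 31-base words of H3C14 were also in H3C15, all of H2AC18 were in H2AC19, and 99.9% of those of H4C14 were in H4C15. In the bins that hold these 6 genes, 0 to 29.96% of 31-base words occurred once in hg38. In the bin of B and C between them it was 96.0%. In the H2BC18 bin of A it was 20.02%. Over the whole group it was 26.1%, while in the chromosome 6 groups it ran from 82.6 to 93.1%. H2BC21, H2AC20 and H2AC21, at the far end of the group in bins with 85.9 to 86.9% unique words, had no interaction within 10 kb. The part of read placement in the choice of bin was not tested.

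**Figure D1:**
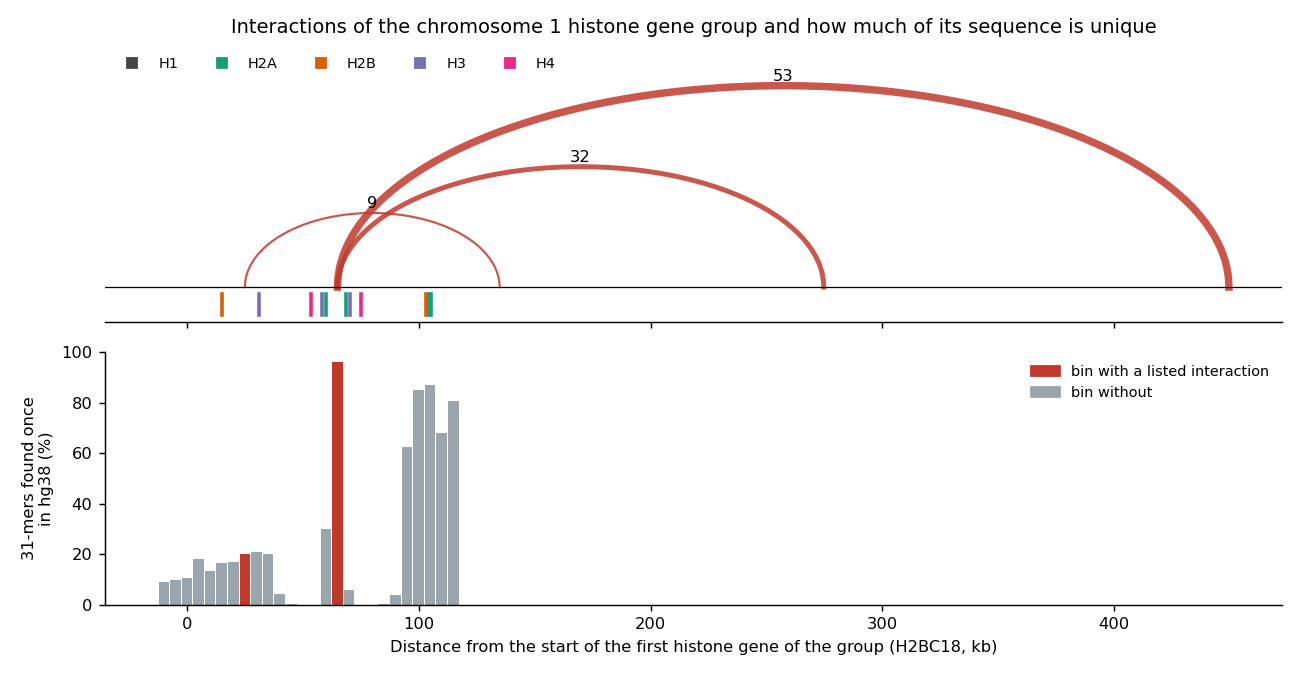
Top, interactions A, B and C of the chromosome 1 histone genes as arcs labelled with their contact counts (9, 32 and 53), line width rising with the count, with genes as ticks coloured by class. Bottom, the percent of 31-base words found once in hg38 in each 5-kb bin within 10 kb of these genes (bins farther away are not drawn), where the bin of B and C stands at 96.0% beside bins of the copied genes between 0 and 29.96%.

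H2BC12L, the single histone gene on chromosome 21, was the other member outside chromosome 6 with an interaction. Interaction D joined chr21:43570001-43575000, in an intron of the recombination factor gene HSF2BP and 4.353 kb from H2BC12L, to a bin 17.196 kb from the lens crystallin gene CRYAA, 380 kb away. It had 39 read pairs (27.7 to 53.3), q = 1.08e-21 and 1.70 times the median at similar length, second to C. It was the only one of the 14 with no HLF motif in either bin. The bin that holds H2BC12L had 0.0402% unique 31-base words, and 65.9% of the words of the gene were also in H2BC12 on chromosome 6. The bin of D had 55.6% unique words. Between 10 and 25 kb from H2BC12L lay 4 more interactions, all from the bin chr21:43585001-43590000 in HSF2BP, with 19 to 43 read pairs.

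On chromosome 6 the 55 histone genes form 4 groups, spread over 2.19 Mb with the 10 kb on each side included (chr6:25713397-27903891). The group of H2AC1 and H2BC1 had no interaction within 10 kb. The group of 32 genes from H1-1 to H4C8 had 3 interactions that reached 15 genes, the 5 genes from H2BC11 to H2AC12 had 2 that reached all 5, and the 16 genes from H2BC13 to H2BC17 had 5 that reached 9. The 10 interactions had 12 to 28 read pairs, fewer than B, C and D.

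In the group of 32 genes the first 9, from H1-1 to H1-2, were the histone genes farthest from any listed bin, from 73.531 kb for H1-2 to 112.214 kb for H1-1. Between them lie H3C1, H4C1, H4C2, H3C2, H2AC4, H2BC3 and H3C3. Their own bins had 84.0 to 99.3% unique 31-base words.

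Interaction G was the only one with a histone gene at both ends. It joined the bin with the start of H3C6 to the bin that holds H3C8 and H2BC10, 50 kb apart, which is the shortest distance the list allows, with 23 read pairs (14.6 to 34.5). FitHiChIP gave it a q-value of 5.93e-08. The first bin was within 10 kb of H2BC8, H2AC8, H3C6 and H1-3, the second of H3C8, H2BC10 and H4C8. The 2 bins shared no 31-base word, and at least 93.9% of the words of each were unique. The count was 0.852 times the median at similar length.

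Interactions E and F left the same group over the longest distances. F joined a bin within 10 kb of H2BC6, H4C4, H3C4, H2AC7, H2BC7 and H4C5, nearest to H4C4 at 0.889 kb, to a bin 11.013 kb from TRIM27, a ubiquitin ligase gene. The distance was 2745 kb, with 28 read pairs (18.6 to 40.5) and q = 2.44e-13, 1.40 times the median at similar length. E joined a bin in H2AC6, also within 10 kb of H2BC4, to chr6:27915001-27920000 near the olfactory receptor gene OR2B2, 1785 kb away, with 19 read pairs (11.4 to 29.7). This partner bin lies 21.11 kb past H2BC17, the last histone gene of the chromosome.

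The bin of H4C12 (chr6:27830001-27835000) took part in 3 interactions of nearly equal count, and 13.9% of all listed bins had as many. H joined it to a bin 21.953 kb from ABT1, a nuclear transcription activator gene, 1260 kb away, with 20 read pairs (12.2 to 30.9). K joined it over 655 kb to a bin 27.439 kb past H2AC12 with 24 (15.4 to 35.7), and M joined it over 360 kb to a bin 20.407 kb from ZKSCAN8P1 with 21 (13.0 to 32.1). The 3 intervals overlap throughout. Of the 31-base words of H4C12, 93.0% were also in H4C11, and 78.8% of the words of the whole bin were unique.

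In the same group, L joined a bin 7.479 kb before H2BC13 to the OR2B2 bin of E over 120 kb, with 28 read pairs (18.6 to 40.5). N joined a bin 1.11 kb past H2BC17, also within 10 kb of H3C12 and H2AC17, to a bin 5.568 kb from the zinc finger gene ZNF165 over 175 kb, with 14 read pairs (7.65 to 23.5). In the group from H2BC11 to H2AC12, I and J had 12 read pairs each (6.20 to 20.96). J reached H4C9 and the 4 other genes of its group and started in the non-coding RNA gene LINC00240, as did I, which reached H2BC11 from a bin with 22.4% unique words. The other bin of I lay within 10 kb of the annotated span of H2BC11 but not of its stem-loop.

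The chromosome 6 histone stretch was poorer in interactions than the chromosome. Interactions whose first bin lay in the stretch numbered 8.22 per Mb, against 19.2 per Mb over chromosome 6 and 16.2 per Mb over the genome. Of its 439 bins 22 had an interaction (5.01%, 3.33 to 7.47%). This was 9 of 95 bins (9.47%, 5.06 to 17.0%) within 10 kb of histone genes, and 13 of 344 bins (3.78%, 2.22 to 6.36%) farther away. Under 50% unique words were found in 1 of the 95 bins and in 67 of the 344, with medians of 88.5% and 85.2% unique words. The part of read placement in these shares was not tested. Over all of chromosome 6, 10.2% of bins had an interaction, inside the interval for the bins near histone genes and above that for the bins farther away. Of the 21 other protein-coding genes in the stretch 7 were reached (33.3%, 17.2 to 54.6%), among them 3 of 6 butyrophilin genes.

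No interaction joined 1 histone group of chromosome 6 to another within the 10-kb windows. Pairs of groups are 269.687 to 2190.49 kb apart, counting the windows, and at these distances the list holds interactions with as few as 10 to 12 read pairs, depending on the pair of groups. These are the smallest counts listed and not a detection limit for the bins of these groups, which was not measured. Absence from the list does not show that the groups are not in contact. E and K came near to joining groups, with ends 21.11 kb and 27.439 kb from the genes of a second group.

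In number of interactions, the edge of the 10-kb window mattered most at the OR2B2 gene. H2BC17, the histone gene nearest to it, was already reached by N. Beyond the window but within 25 kb of a histone gene lay 18 further interactions, 10 of them from the neighbouring bins chr6:27910001-27915000 and chr6:27915001-27920000. These bins had 5 and 7 interactions in all, 14 to 34 read pairs each, and 1 and 3 HLF motifs, and the bin of 7 was also the partner of E and L. In the same range were 4 interactions at H2BC12L, 2 at H2AC25 and H2BC26 and 2 at H4C16, of which the strongest joined a bin 17.999 kb from H4C16 to GUCY2C with 36 read pairs.

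A list of 18 genes covered histone mRNA processing, the histone locus body and broader regulators such as YY1, POU2F1, E2F1, CCNE1 and CDK2. Of the 18 genes, 14 were reached (77.8%, 54.8 to 91.0%). This interval overlapped that of the histone genes and included the 64.5% of all protein-coding genes, and no test of the difference was made. NPAT, the histone gene activator, had 5 interactions, of which the strongest had 41 read pairs (29.4 to 55.6) over 170 kb. SLBP, which binds the stem-loop, had 3 with at most 28 read pairs. CASP8AP2, a histone locus body scaffold, had 3 with at most 23. LSM11, part of the U7 particle that guides cleavage after the stem-loop, had 1 with 45 read pairs (32.8 to 60.2). YY1, a zinc finger factor with many other targets, had 13, up to 63 read pairs. CCNE1, CSTF2, ERI1 and ZNF473 had none.

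Of 14 genes listed as replication-independent histone genes, 10 were reached (71.4%, 45.4 to 88.3%). H2AZ2, which encodes an H2A.Z protein, stood highest with 18 interactions, all with a bin in the gene, up to 72 read pairs (56.3 to 90.7). H1-10 had 6 and H2AX 1. H2AZ1, H2AJ, H2AB1 and H2BW1 had none. Of 81 cytosolic ribosomal protein genes, another set of short and highly transcribed genes, 53 were reached (65.4%, 54.6 to 74.9%). A bin lay in the gene for 66.7% of the list of processing, locus body and regulator genes. The shares were 42.9% of the replication-independent histone genes and 38.3% of the ribosomal protein genes, against 8.57% of the replication-dependent histone genes. These lists differ in gene length, with medians of 36.1, 3.08 and 5.55 kb.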

How the data were processed

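TCF3::HLF HiChIP had been made from 2 replicates of HAL-01 cells with MNase-fragmented chromatin. Per the labels and methods, the authors trimmed reads with Trim Galore 0.6.6, merged replicates, aligned to hg38 with BWA-MEM, parsed pairs with pairtools without removing duplicates, and called peaks with MACS2 and interactions with FitHiChIP (5-kb bins, 50 kb to 3 Mb, q-value of 0.01, nearby contacts merged). The FitHiChIP version is not given in the sources used here. The deposited table holds contact counts per bin pair, p-values, q-values and a fraction, namely how many bin pairs of a merged group were significant. The methods give a sequencing depth for the pooled replicates, and the table does not show the depth of either one. The smallest contact count listed was 7.

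Bins were set against GENCODE release 44 genes, and 0 bins ran past an hg38 chromosome end. No sample column was left unmatched. Motifs were exact matches on either strand. A 31-base word was unique when it occurred once in hg38 on both strands (chromosomes 1 to 22, X and Y). Intervals were Wilson for shares and exact Poisson for counts, at 95%. No test between groups was possible with 1 condition. Overlap and word counting were tested on simulated data. The tools were numba 0.67.0, scipy 1.17.1, pandas 2.3.3, numpy 2.4.6 and matplotlib 3.10.9 under Python 3.11.15.

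Every member was counted as reached or not. Interactions were described by largest contact count, smallest P, both ends at histone genes, longest and shortest distance, and the strongest of each group. The members and lists were chosen with earlier results of these data known. Alternatives changed the window, the bin ranges, the q-value, the contact count, the motifs, the chromosomes and the handling of shared sequence.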

Additional observations from a re-analysis of the deposited data

How the results depend on the processing

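With bins required to overlap the gene itself (0 kb), the histone gene interactions numbered 6, 8.57% of histone genes were reached and 100% of the interactions held an HLF motif. With 25 kb, the numbers were 32 interactions and 75.7% of genes, and 3 interactions had a histone gene at both ends. A q-value under 1e-05 left 40% of genes reached. A contact count of at least 20 left 9 interactions and 37.1% of genes. Over all protein-coding genes the share was calculated only for 0 kb (51.2%) and for the 10-kb window (64.5%). The shares at 25 kb and under the stricter limits therefore cannot be set against either. Without the chromosome 6 genes there were 4 interactions with a median of 35.5 read pairs, and 0 between histone genes. With TTACGTAA alone 0% of the interactions held a motif, so the share with a motif rested on TTATGTAA. The share with TTACGTAA alone was not calculated for the whole list, so this is not shown to be particular to histone gene interactions. The other 40 of 53 recalculated values stayed within 1.5 times the count, or within the 95% interval of the share or median. Among them was an alternative chosen after seeing the data, which required at least 50% unique words in both bins and kept 12 interactions. No paired analysis was possible because the authors merged the replicates, and for the same reason neither replicate could be left out. The list holds called interactions only, so weaker contacts have no value here.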
